A study of Mus musculus with 4 samples.

Results

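The nuclear genes for the mitochondrial oxidative phosphorylation machinery were followed across 4 arrays of mouse testis RNA. They were taken by gene symbol. Every probe set was used whose single symbol fits a name pattern for complexes I to IV, the ATP synthase or cytochrome c. This gave 97 probe sets of 72 genes, out of 12422 probe sets and 8251 named genes on the array. A further 9 probe sets carry several symbols of which at least 1 matches, and they were not used. The symbol pattern also took in Sdhaf1 and Sdhaf2, which are assembly factors of complex II and not subunits, so they are given apart. It missed some subunits, among them Ndufab1 of complex I and Cyc1 of complex III, which are given with the further respiratory genes.

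The mice were hypogonadal (hpg), a strain that lacks gonadotropin-releasing hormone and so makes little testosterone of its own, and all arrays are of this strain. All groups had received testosterone propionate, an injectable testosterone ester, followed by its withdrawal, and the first treatment lasted 2 weeks where the label gives a time. A single array has the title T+O and its description ends with the withdrawal. The title T+T is shared by 3 arrays: for replicate 1 the label adds a second exposure to testosterone propionate of 4 hours, and the descriptions of replicates 2 and 3 stop at the withdrawal, so that their place in T+T rests on the title. The labels give no age, no dose and no word on separate or pooled animals, so the p-values below measure only the spread between these samples, which may be technical. The comparison of T+T with T+O asks how the testis of an androgen-deprived mouse answers renewed testosterone.

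Oxidative phosphorylation passes electrons from NADH through complex I, or from succinate through complex II, to complex III, then by cytochrome c to complex IV, which reduces oxygen. The protons pumped on the way drive the ATP synthase. Most subunits are encoded in the nucleus and a few in mitochondrial DNA. In the testis, meiotic and later germ cells use their own isoforms of some parts: Cyct is the testis form of cytochrome c (the somatic form is Cycs), and Cox6b2 and Cox8c are testis forms of complex IV subunits whose somatic forms are Cox6b1 and Cox8a. Sperm rely on both glycolysis and mitochondrial respiration.

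Promoter sequences were searched for motifs of factors known to act on respiratory genes. The RefSeq promoter table (build GRCm38.p6, 250 bases before to 50 bases after each gene start) held 64 promoters of 59 of the 72 genes. The letters searched on both strands were GCATGCGC for NRF1, a factor known for driving nuclear genes of respiration, CCGGAAGT for ETS factors, AAGATGGC for YY1 and TGACGTCA for CREB. The NRF1 letters were present in 10 of the 64 promoters (15.6%), against 2.71% of the 32851 promoters of the table and 4.51% of the promoters of named genes on the array. The YY1 letters were in 8 promoters (12.5%, against 2.75% and 3.73%), the CREB letters in 3 (4.69%, against 1.79% and 2.6%) and the ETS letters in 4 (6.25%, against 3.89% and 6.68%). In all, 35.9% of the member promoters held at least 1 of these motifs, against 10.3% of the table, so most held none. A match is a description of the sequence and not evidence of a bound site. The 7 stretches with the NRF1 letters that lie wholly before the gene start are shown. On average 6 of these 7 genes lay above T+O, Atp5k by only 0.01, beside 40 of the 64 members tested. Cycs, the gene with the lowest difference of the 64, carries the same letters. No link between the letters and the direction was tested. The stretches are written 5′ to 3′ on the strand of the gene, with the matched letters in capitals.
Cycs: catgctagctcGCATGCGCgcgcacaaacc
Sdhb: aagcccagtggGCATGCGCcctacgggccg
Ndufa6: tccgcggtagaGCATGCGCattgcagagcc
Cox6a1: aggaacggggcGCATGCGCgctctcgctcc
Atp5g2: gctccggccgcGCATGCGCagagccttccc
Atp5k: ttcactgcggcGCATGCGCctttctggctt
Atp5l: aaccaataacGCATGCGCatttcccccac
In GRCm38.p6 these lie at chr6:50566611-50566640 (Cycs, minus strand), chr4:140961206-140961235 (Sdhb, plus strand), chr15:82354356-82354385 (Ndufa6, minus strand), chr5:115349100-115349129 (Cox6a1, minus strand), chr15:102671069-102671098 (Atp5g2, minus strand), chr5:108434429-108434458 (Atp5k, minus strand) and chr9:44920964-44920992 (Atp5l, minus strand). In Cox6a1, Atp5g2 and Atp5k the letters overlap a second match on the opposite strand. The promoters of Ndufa8, Uqcr11 and Uqcrc1 hold the letters within 8 bases of the gene start or after it, and are not printed. The Cycs promoter also holds the CREB letters.

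The arrays were brought to a common trimmed mean, which leaves out the lowest 2% and the highest 2% of values, and all signals below are on that scale. A difference is T+T minus T+O on the log2(signal + 9.78) scale, where 9.78 is the 25th percentile of all values, and it understates changes of dim probes. A probe set was kept for testing when its mean over the 4 arrays was above 22.7. This left 7453 probe sets, 79 of the 97 members among them (81.4%, against 60% of all probe sets), which stand for 64 of the 72 genes. Where a gene had several kept probe sets, the brightest represents it unless the text says otherwise. Germ-cell transcripts were present on every array: Prm1, a sperm protamine, had 7912 in T+O and 9160 ± 1083 (SD, n = 3) in T+T. The summed signal of 13 kept germ-cell markers of 14 was 37960 in T+O and 37760 to 47580 in T+T, Prm2 was dim at 25.5 in T+O and 29.3 to 58.1 in T+T, and Sycp3 was below the filter. The summed signal of 5 Leydig cell markers was 346 in T+O and 301 to 390.1 in T+T, that of 6 Sertoli cell markers 2300 against 2398 to 2716, and that of 5 peritubular myoid markers 431 against 520 to 536. The 5 spermatogonial markers summed to 594 against 523 to 571 and went both ways. Dazl had 166 in T+O and 63.5, 79.2 and 103 in T+T. Its difference of -0.96 (limma adjusted p = 0.41) was not shared by its second probe set (0.01). Stra8 (-0.56) also lay below T+O on all 3 T+T arrays, Kit (0.16) and Uchl1 (0.28) lay above, and Zbtb16 overlapped. The 3 endothelial markers kept summed to 179 against 194.5 to 271, and the 4 macrophage markers kept to 170 against 199 to 269. Such sums can rest on 1 bright gene, as on Clu (1589 in T+O) among the Sertoli markers. Cnn1 (myoid), Star (Leydig) and Lyz2 (macrophage) were under the filter value in T+O and kept only through T+T. Of the 5 myoid markers 4 were positive and Myh11 was negative (-0.15). Probe sets at the 3′ and 5′ ends of Gapdh, a check on RNA integrity, gave a ratio of 1.2 for T+O, whereas the T+T ratio was 0.844 ± 0.039 (SD, n = 3). The same ratio for Actb was 1.53 in T+O, within the T+T values of 1.17 to 1.66, and that for pyruvate carboxylase 3.76 against 1.76 to 2.00. The part of these ratios or of cell content in any difference below was not tested, and in tissue RNA fewer cells of a type and less RNA per cell cannot be told apart.

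No oxidative phosphorylation gene passed the test between T+T and T+O. With limma and Benjamini-Hochberg adjustment over 7453 probe sets, 0 of the 79 member probe sets had an adjusted p under 0.05, where 0.0268% of all probe sets were called higher and 0% lower. At an unadjusted level of 0.05, limma gave 1 member higher (an Atp5d probe set) and 0 lower, against 3.57% and 4.23% of all probe sets. The differences were small in size: 48 of 64 genes (75%) lay within 0.25 of 0 on the log2 scale, against 58.5% of the 5677 genes kept. For 54 of the 64 genes (84.4%, against 68.7% of all) the 95% limma interval of the difference lay inside a 2-fold change either way. The members were brighter than the genes they are set beside, with a median signal of 546 against 95.3 and a median SE of 0.20 against 0.25, and all intervals rest on 1 T+O array. The 10 genes whose interval reached past 2-fold were Cycs, Ndufa1, Ndufa5, Ndufc2, Sdhd, Uqcrb, Cox6b1, Cox7b, Atp5g1 and Atp5k.

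The middle of the distribution lay slightly above 0. The median difference over the 64 genes was 0.11, beside 0.02 over all genes, and 40 of the 64 genes had a positive difference, where 3008 of all 5677 did. On the values as deposited 17 of the 64 were positive. Of the 79 member probe sets, 28 lay above T+O on all 3 T+T arrays (35.4%, against 29.5% of all probe sets) and 9 lay below it on all 3 (11.4%, against 23.7%). Those above include dim probe sets of Cox6c, Atp5g2 and Atp5g1 that were under the filter value in T+O and kept only through T+T. The filter thus partly set their direction. These counts rest on 1 T+O array, so an error in that array moves all of them together. They also depend on the scaling. After scaling to a common median, 15 member probe sets lay above (19%, against 24.8% of all) and 9 below (11.4%, against 26.6%). After quantile normalization 33 lay above (41.8%, against 29.9%) and 13 below (16.5%, against 24.6%). On the values as deposited 3 lay above (3.9%, against 6.94%) and 15 below (19.5%, against 20.3%), and the median of all genes was -0.17 and that of the members -0.10. The members' median thus lay between 0.05 and 0.09 above that of all genes under these 4 scalings, less than the spread of the 3 arrays described next.

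**Figure D1:**
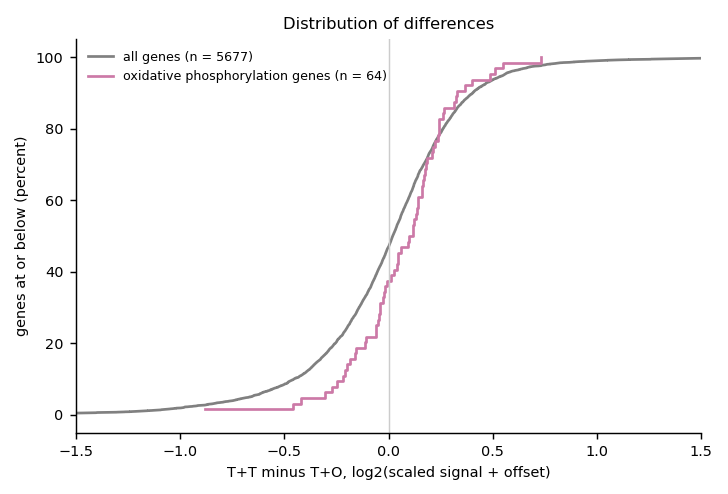
Cumulative share of genes (vertical axis, percent) at or below each log2 difference T+T minus T+O (horizontal axis), for the 64 oxidative phosphorylation genes and all 5677 genes kept, 1 probe set per gene. The oxidative phosphorylation curve is steeper and crosses 50% at 0.11, where the curve of all genes crosses it at 0.02.

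The median difference of the members varied between the T+T arrays. It was 0.14 on replicate 1 and 0.17 on replicate 2 but 0.02 on replicate 3, and 45, 46 and 33 of the 64 genes lay above T+O on these arrays. The same medians over all genes were 0.03, 0.01 and 0.03. Replicate 3 thus had the lowest median of the 3 under this scaling. Both complex II, with 0.53, 0.41 and 0.12, and the ATP synthase, with 0.24, 0.26 and -0.10, had replicate 3 lowest. The median of the 13 germ-cell markers was also lowest on replicate 3, at 0.23, 0.29 and 0.04. That of the 3 germ-cell isoforms was 0.04, 0.06 and 0.09, but 2 of these genes were lowest on replicate 3. They were Cox8c (0.32, 0.24 and 0.09) and Cox6b2 (0.04, 0.06 and -0.15). Only Cyct was highest there (-0.49, -0.11 and 0.13). Of the 13 germ-cell markers 8 lay above T+O on all 3 arrays and 2 below, Clgn (-0.57) and Acrv1 (-0.36). Of all 5677 genes 1652 lay above and 1391 below under this scaling. The part of germ cells in the result was not tested. Replicate 3 was also lowest after quantile normalization, where the members' medians on replicates 1, 2 and 3 were 0.10, 0.13 and 0.05. The same held after median scaling, with 0.16, 0.20 and -0.11. On the values as deposited replicate 3 was highest, with -0.18, -0.35 and 0.24, and all genes had -0.27, -0.47 and 0.24. Without replicate 3, 46 member probe sets lay above T+O on both remaining arrays, where 40% of all probe sets did, and 15 lay below, where 33.9% did. Without replicate 1 these counts were 31 and 15, where 36.3% and 30.2% of all probe sets did so, and without replicate 2 they were 32 and 14, where 37.2% and 28.9% did. All 3 differences share the T+O array.

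**Figure D2:**
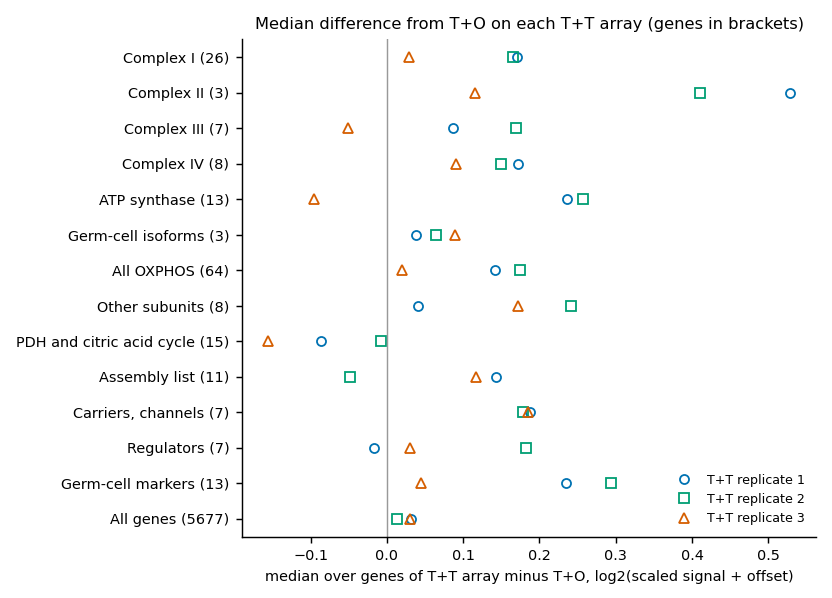
Median over the genes of each group of the difference of 1 T+T array from T+O (horizontal axis, log2 scale), with a marker for each of the 3 T+T arrays and the number of genes in brackets. On the trimmed-mean scale used here, in complexes I to IV and the ATP synthase the marker of replicate 3 lies left of those of replicates 1 and 2; over all genes the 3 markers lie between 0.01 and 0.03.

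Complex I, the NADH dehydrogenase through which most electrons enter the chain, was represented by 28 genes, 26 of them kept. Its median difference was 0.13, with 17 genes positive and 9 negative. On all 3 T+T arrays 13 genes lay above T+O and 3 below it, where 1652 and 1391 of all 5677 genes did. None of the complex I genes passed the test. Ndufb6, an accessory subunit of the membrane arm, had the highest difference of these 26 genes. Its signal was 599 in T+O and 828.5, 775 and 727 in T+T replicates 1, 2 and 3. All 3 T+T arrays lay above T+O, and the log2 difference was 0.37 (standard error, SE, 0.17, limma adjusted p = 0.68). Ndufv2, a core subunit of the NADH-oxidising module, had 1109 in T+O and 1428, 1483 and 1284 in T+T, also without overlap, a difference of 0.33. Its second probe set differed by 0.15. Ndufb2 had 801 in T+O and 1013, 1010 and 876 in T+T, a difference of 0.26, with 0.03 on its other kept probe set. The core subunits Ndufv1 and Ndufs1 lay above T+O on all 3 arrays too, with 1354 against 1568 ± 129 and 297 against 329 ± 19.5 (SD, n = 3).

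At the other end of complex I, Ndufa5, an accessory subunit of the matrix arm, had 857 in T+O and 469.5, 722 and 704 in T+T. All 3 T+T signals lay below T+O, replicate 1 farthest, and the difference was -0.46 (SE 0.26, limma adjusted p = 0.74). Ndufa1, needed for assembly of the membrane arm, had 57.5 in T+O and 32.9, 51.6 and 60.1 in T+T, so that the groups overlapped, a difference of -0.25. Ndufa2 had 361 in T+O and 315, 347 and 269 in T+T, below T+O throughout, a difference of -0.22. Ndufa10 was the third gene below on all 3 arrays, at 86.8 against 86.5, 86.8 and 56.3, a gap that only replicate 3 makes visible. Both Ndufa3 probe sets were close to 0 with opposite signs (-0.04 and 0.06). The other kept genes of complex I ranged from -0.16 to 0.24. Ndufa12 and Ndufs4 were below the filter, with 5.31 and 3.48 in T+O and 13.4 ± 6.22 and 10.3 ± 1.87 (SD, n = 3) in T+T.

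Complex II, succinate dehydrogenase, is the one complex that also serves the citric acid cycle, and all its subunits are nuclear. The 3 kept genes were all positive, with a median of 0.40. Sdhd, a membrane anchor, had 261 in T+O and 483, 419 and 283 in T+T. The 3 T+T arrays lay above T+O, but replicate 3 only by 0.12 on the log2 scale where replicates 1 and 2 differed by 0.86 and 0.67, and the mean difference of 0.55 had an SE of 0.29 (limma, adjusted p = 0.72). Sdhb, the iron-sulfur subunit, had 577 in T+O and 836, 769 and 693 in T+T, again with no overlap, a difference of 0.40 (SE 0.18, limma adjusted p = 0.67). Sdhc, the other anchor, had 430.1 in T+O and 454, 432.5 and 428 in T+T. Its groups overlapped and the difference was 0.03, with a 95% interval from -0.37 to 0.42. The flavoprotein Sdha was below the filter, at 20.6 in T+O and 20.3 ± 1.74 (SD, n = 3) in T+T. The assembly factors Sdhaf1 and Sdhaf2 differed by -0.05 and 0.04, and T+O lay within their T+T values.

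**Figure D3:**
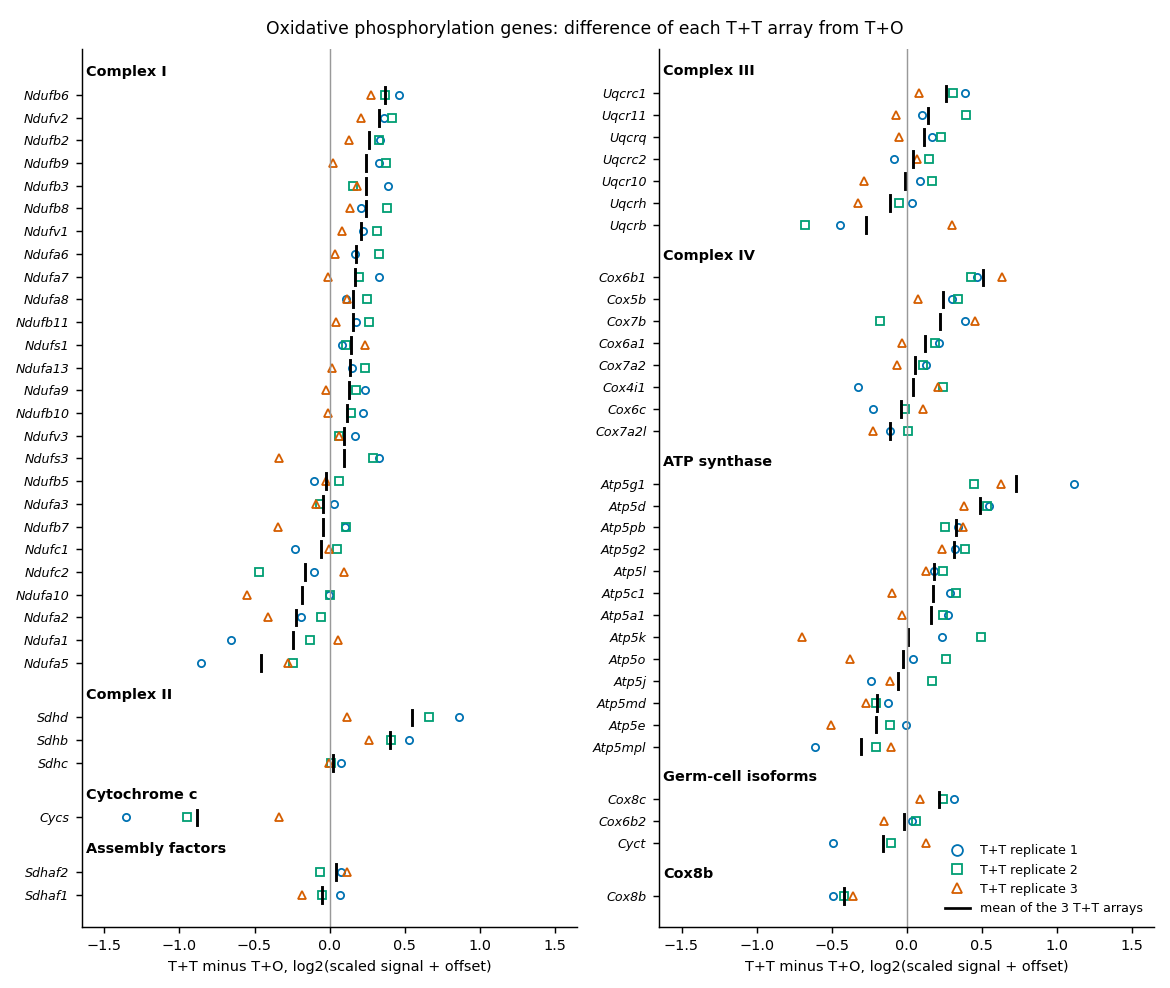
Difference of each T+T array from T+O (horizontal axis, log2 scale) for the 64 genes kept, 1 row per gene, grouped by complex. Open symbols are the 3 T+T arrays and black bars their means; Cycs lies farthest left at -0.88 and Atp5g1 farthest right at 0.73, and the 3 arrays of both genes are spread widely.

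Complex III, the cytochrome bc1 complex, passes electrons from ubiquinol to cytochrome c. All 7 genes by the rule were kept, with a median difference of 0.04. Of these 7 only Uqcrc1 lay to 1 side of T+O on all 3 arrays. Cyc1, a subunit outside the symbol pattern, also did so and is given with the further respiratory genes. Uqcrc1, a core protein of the complex, had 1251 in T+O and 1639, 1554 and 1325 in T+T, a difference of 0.26 (SE 0.19, limma adjusted p = 0.80). Uqcr11 had 287 in T+O and 308, 380 and 273 in T+T, a difference of 0.14. Uqcrq had 2349 in T+O and 2638, 2756 and 2267 in T+T, a difference of 0.12. In both the replicate 3 signal lay under T+O. Uqcrb, which binds ubiquinone, was the most scattered of the complex, with 356.5 in T+O and 259, 220 and 443 in T+T. Replicate 3 lay above T+O and the other 2 arrays below, and the mean difference was -0.27 (SE 0.35.) Uqcrh, the hinge protein, had 569 in T+O and 584, 550 and 452 in T+T, a difference of -0.11, and Uqcr10 had 554 against 556 ± 89.98 (SD, n = 3), a difference of -0.01.

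Cytochrome c carries electrons from complex III to complex IV, and its somatic and testis forms were measured by 1 probe set each. Cycs, the somatic form, had 62.7 in T+O and 18.5, 27.7 and 47.5 in T+T. All 3 T+T arrays lay below T+O and differed among themselves by more than 2-fold. Its log2 difference of -0.88 was the lowest of the 64 genes, (SE 0.42, 95% interval from -1.86 to 0.10, limma adjusted p = 0.69). Cyct, the testis form, had 262 in T+O and 183, 243 and 287 in T+T, with T+O inside the T+T range. Its difference was -0.16 (SE 0.26, limma adjusted p = 0.94). Between the arrays, replicate 1 was lowest and replicate 3 highest of the T+T group for both forms. The difference between the 2 forms' responses was not tested.

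Complex IV, cytochrome c oxidase, holds several subunits with tissue isoforms. Of its 10 ubiquitous genes 8 were kept, with a median of 0.09. Cox6b1, the somatic form of a subunit facing cytochrome c, had 51.5 in T+O and 74.9, 72.7 and 85.2 in T+T. The 3 T+T arrays lay close together and above T+O, a difference of 0.51 (SE 0.24, limma adjusted p = 0.68), on a probe set whose name ends in _r_at, a mark the array maker gives where probes had to be chosen under relaxed rules. Cox5b had 893 in T+O and 1102, 1137 and 939.9 in T+T, a difference of 0.24, also above T+O on all 3 arrays. Cox7b had 27.0 in T+O and 38.4, 22.7 and 40.5 in T+T and overlapped, a difference of 0.22. Cox7a2l, which helps to join complexes III and IV, had 288 in T+O and 266, 289 and 244 in T+T, a difference of -0.11. Cox4i1, the regulatory subunit, had 104 in T+O and 81.1, 125 and 122 in T+T, a difference of 0.04 (0.08 on its other probe set) whose sign turns without replicate 2 or without replicate 3.

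Cox6c showed how far 2 probe sets of a gene can disagree. Its brightest had 1680 in T+O and 1440, 1669 and 1811 in T+T, a difference of -0.04. A dim one, also ending in _r_at, had 10.7 in T+O and 29.2, 31.5 and 21.8 in T+T, a difference of 0.85 (limma, adjusted p = 0.68). It was 1 of only 2 member probe sets at least 1.5-fold above T+O on all 3 T+T arrays, 2.53% of the 79, against 1.84% of all probe sets. No member was 1.5-fold below on all 3, against 2.23% of all. Its T+O signal was under the filter value of 22.7, so it was kept only through its T+T signals, and neither its difference nor this count is evidence of a change. Cox5a and Cox8a were below the filter, at 19.2 and 3.20 in T+O and 14.1 ± 9.36 and 8.49 ± 5.33 (SD, n = 3) in T+T.

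The germ-cell forms of complex IV were bright on every array and close between the groups. Cox8c, the testis form of subunit 8, had 4781 in T+O and 5952, 5661 and 5084 in T+T. The 3 T+T arrays lay above T+O, a difference of 0.22 (SE 0.18, 95% interval from -0.20 to 0.63, limma adjusted p = 0.84), while its dimmer probe set gave 0.01 with overlap. Cox6b2, the testis form of subunit 6b, had 3734 in T+O and 3835, 3905 and 3363 in T+T on its brightest probe set. The difference was -0.02 with a 95% interval from -0.43 to 0.39. The name of this probe set ends in _f_at, given where probes may also bind related transcripts. A second Cox6b2 probe set had 2019 in T+O and 2460, 2478 and 674 in T+T. Replicate 3 stood apart on that probe set alone: the third, dim one had 32.6 in T+O and 32.2, 18.6 and 31.1 in T+T. The 3 germ-cell genes had a median difference of -0.02 and the 13 germ-cell markers one of 0.19. Cox7b2 was not analysed here. Of the muscle, heart or lung forms, Cox6a2 and Cox7a1 were below the filter, and Cox8b had 101 in T+O and 69.5, 73.4 and 77.1 in T+T. The Cox8b arrays did not overlap, a difference of -0.42 (SE 0.22, limma adjusted p = 0.72), but its other probe set was below the filter. Of 4 striated muscle markers, Ckm had 33.0 in T+O and 89.1, 45.1 and 51.6 in T+T. Myh4 read 10.1 in T+O against 42.0, 14.2 and 58.5, passing the filter only through T+T, while its other probe set lay below T+O on all 3 arrays, and Acta1 and Tnnt3 were below the filter. Their part was not tested.

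**Figure D4:**
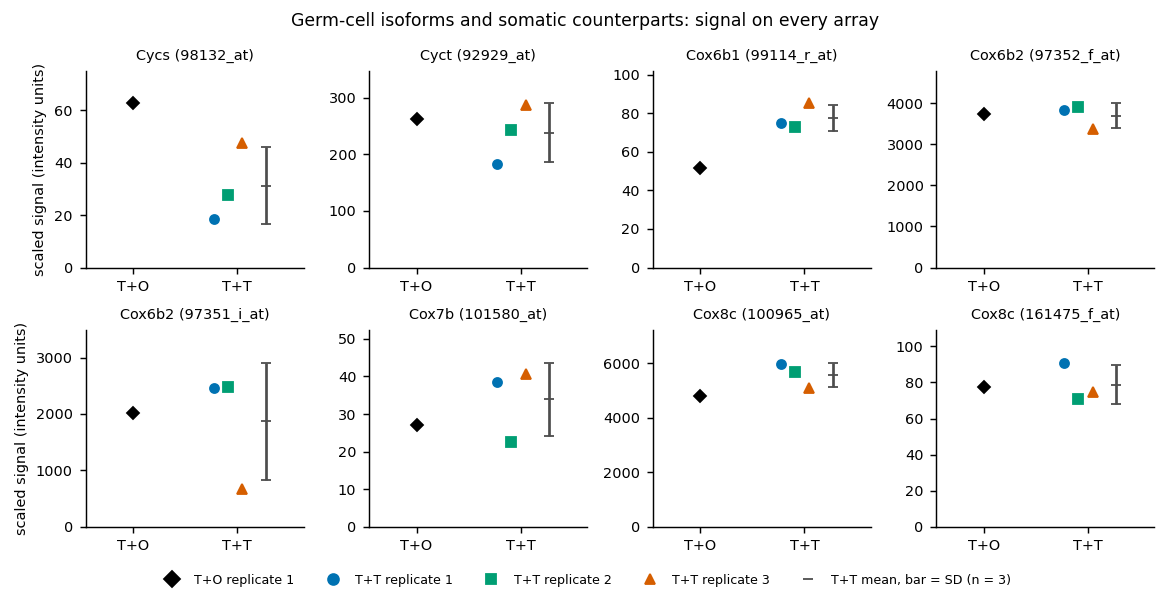
Scaled signal (vertical axis, intensity units, from 0) of germ-cell isoforms and their somatic counterparts, 1 panel per probe set, with the T+O array, each T+T array, and the T+T mean with its SD. Cycs lies below T+O on all 3 T+T arrays and Cox6b1 above, while T+O lies within the T+T values of Cyct, the Cox6b2 probe sets drawn and Cox7b; panels have their own scales and are not to be compared in height.

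The ATP synthase turns the proton gradient into ATP. Of its 14 genes 13 were kept, with a median difference of 0.16, 8 of them positive and 5 negative. The highest was Atp5g1, 1 of the genes for the membrane ring subunit c through which protons pass. It had 28.0 in T+O and 72, 41.8 and 48.5 in T+T, all above T+O, a difference of 0.73 (SE 0.34, 95% interval from -0.05 to 1.51, limma adjusted p = 0.68). Its second probe set had 22.0 in T+O and 32.3, 25.2 and 27.2 in T+T, a difference of 0.26. Atp5g2, which encodes the same subunit c, had 60 in T+O and 77.3, 81.6 and 72.2 in T+T, a difference of 0.31. Its dim second probe set had 10.1 in T+O and 27.3, 33.3 and 21.3 in T+T, a difference of 0.89 (limma, adjusted p = 0.67), and was the other member 1.5-fold above on all 3 arrays. The second probe sets of both genes were under the filter value in T+O and were kept only through T+T, so their direction is partly set by the filter. The larger of these values also depend on the offset: with an offset at the 50th percentile no member was 1.5-fold apart on all 3 arrays.

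Among the soluble and stalk subunits, Atp5pb, subunit b of the stator, had 54.8 in T+O and 72.2, 67.4 and 74.0 in T+T, above T+O throughout, a difference of 0.33. Atp5d, subunit delta of the central stalk, was read by 5 kept probe sets that did not share a sign. The brightest had 155 in T+O and 231, 229 and 204 in T+T, a difference of 0.49 (SE 0.19, limma adjusted p = 0.60), and the other 4 gave 0.16, -0.12, -0.13 and -0.13. The direction for Atp5d is uncertain. The catalytic alpha subunit Atp5a1 had 1055 in T+O and 1281, 1251 and 1034 in T+T, a difference of 0.16, and the gamma subunit Atp5c1 gave 0.17 and 0.18 on its 2 probe sets. In both, replicate 3 lay just under T+O. Atp5l, a small membrane subunit, had 768 in T+O and 874, 911 and 839 in T+T, above T+O on all 3 arrays, a difference of 0.18.

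The 3 genes of the ATP synthase below T+O on all arrays encode small subunits. Atp5mpl had 652.5 in T+O and 424, 565 and 606 in T+T, a difference of -0.31 (SE 0.23, limma adjusted p = 0.81). Atp5e, subunit epsilon, had 685 in T+O and 681, 635 and 479.7 in T+T, a difference of -0.21. Atp5md had 387 in T+O and 355, 335 and 319 in T+T, a difference of -0.20. Atp5j and Atp5o were close to 0, at -0.06 and -0.02. Atp5k was the most scattered, at 50.8 in T+O and 61.5, 75.6 and 27.5 in T+T, a difference of 0.01. Atp5j2 was below the filter at 22.0 in T+O and 21.0 ± 5.17 (SD, n = 3) in T+T.

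The spread between the T+T arrays sets what these data can show. Across the 64 genes the coefficient of variation of the scaled signal over the 3 T+T arrays had a median of 9.64%, from 3.14% for Sdhc to 47.3% for Cycs, beside a median of 15.1% over all genes, which are dimmer. Between arrays, the log2 signals of the 79 kept member probe sets correlated with Pearson's r from 0.978 (T+T replicates 1 and 3) to 0.992 (T+T replicates 1 and 2), across probe sets that are not independent replicates. Of the 10 genes with the NRF1 letters in their promoter, 9 had a positive difference, Cycs being the exception, beside 40 of all 64 members. The median of these 10 was 0.17, and 6 lay above T+O on all 3 arrays, as 24 of the 64 members and 1652 of all 5677 genes did. Of the kept genes with the other letters, 3 of 6 were positive for YY1 (median 0.04), 2 of 3 for ETS (0.10) and 1 of 3 for CREB (-0.18). These counts are on the trimmed-mean scale, and no test was made on these groups.

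Other mitochondrial genes gave no call either, with 0 probe sets past the adjusted threshold in limma in each list. Among 8 further respiratory genes kept, 6 were positive, with a median of 0.19. Of these, Etfdh (0.24) had 18.4 in T+O, under the filter value, and was kept only through T+T. Ndufab1, a complex I subunit outside the symbol pattern, had 276 in T+O and 335, 441 and 320.5 in T+T, a difference of 0.38. Cyc1, of complex III, had 921 in T+O and 1041, 1056 and 1324 in T+T, a difference of 0.30. Its other probe set gave 0.08, and both lay above T+O on all 3 arrays. Ghitm, an inner membrane protein, had 740 in T+O and 943, 1108 and 937 in T+T, a difference of 0.42 (limma, adjusted p = 0.64) that its dimmer probe set did not share (-0.15), and Etfa, an electron transfer flavoprotein subunit, had 74.1 in T+O and 45.7, 62.2 and 71.1 in T+T. In the pyruvate dehydrogenase complex and the citric acid cycle, 6 of 15 kept genes were positive, with a median of -0.04. Dld, the E3 subunit shared by several dehydrogenases, had 220 in T+O and 115, 112 and 164 in T+T, below T+O throughout, a difference of -0.74 (limma, adjusted p = 0.51). Idh3g, a citric acid cycle subunit, had 84.9 in T+O and 121, 104 and 91.4 in T+T, above T+O throughout. The testis form of the pyruvate dehydrogenase alpha subunit, Pdha2, had 962 in T+O and 1181, 1088 and 1037 in T+T, a difference of 0.19. The somatic form Pdha1 had 44.6 in T+O and 34.5, 40.9 and 10.4 in T+T, a difference of -0.61 (SE 0.53.)

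Carriers and channels of the mitochondrial membranes held the widest difference of these lists. Slc25a5, an adenine nucleotide translocase that exchanges ATP for ADP, had 75.9 in T+O and 173, 141 and 162 in T+T. The T+T arrays lay close together at around 2-fold above T+O, a difference of 0.97 (SE 0.21, limma adjusted p = 0.26), on a probe set with the ending _f_at, given where probes may also bind related transcripts. Its other kept probe set gave 0.27 with overlap. The related Slc25a4 had 241 in T+O and 217, 198 and 319 in T+T, a difference of -0.01. Slc25a31, the germ-cell translocase, was not analysed here. Of 7 carriers and channels kept, 6 were positive, with a median of 0.21. The 11 assembly factors kept had a median of -0.02, from Ndufaf1 at -0.18 to Lrpprc, a regulator of mitochondrial mRNA, at 0.40, with 92.0 in T+O and 123, 124 and 126 in T+T. Of 7 regulators kept, 3 were positive. Esrra, a nuclear receptor known to act on respiratory genes, had 86.4 in T+O and 162, 121.5 and 139 in T+T, a difference of 0.64 (limma, adjusted p = 0.53), with 0.02 on its other probe set. Polg2, an accessory subunit of the mitochondrial DNA polymerase, had 32.7 in T+O and 19.0, 22.2 and 20.7 in T+T, a difference of -0.49. Ppargc1a and Tfam were below the filter, and genes encoded in mitochondrial DNA were not analysed here.

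The title of T+T replicate 1 is the only T+T title that its description bears out, and setting it alone against T+O gives no replicate check. Between these arrays 45 of the 64 genes were positive, with a median of 0.14 beside 0.03 over all genes. The members at least 1.5-fold apart were Atp5g1 at 1.11, Cox6c at 0.93 and Atp5g2 at 0.90 on their dim probe sets and Sdhd at 0.86 on the one side (4 of 79 probe sets, against 512 of all 7453), and Cycs at -1.36, Ndufa5 at -0.85, Ndufa1 at -0.66 and Atp5mpl at -0.61 on the other (4 of 79, against 824 of 7453).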

How the data were processed

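The deposited tables hold a linear signal intensity for each probe set on 4 one-colour arrays of testis RNA. How the authors computed and scaled it was not given in the sources used here, and the probe set names in the file are of the Affymetrix kind. The 66 control probe sets were removed, and each of the 4 arrays was multiplied by 0.915, 1.15, 1.33 or 0.779 (T+O replicate 1, then T+T replicates 1 to 3) to reach the same trimmed mean. Replicate 3 of T+T is the one left unnumbered in its title. Gene symbols came from the platform annotation; updating them through a RefSeq gene table (GRCm38.p6) changed none of the 72 members.

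Probe sets were tested in limma 3.58.1 (R 4.3.3; eBayes with an intensity trend, two-sided), in 1 fit of all 4 arrays with 2 residual and 5.73 prior degrees of freedom. The fit takes the spread of T+T as that of the lone T+O array, and the number of arrays limits the precision. The procedure was run on simulated data that gave T+O the same spread as T+T. That run therefore cannot check the spread assumed for T+O. The members, the gene lists and the tests were chosen with earlier results of these data known. Genes were named by a rule: the isoform pairs, the 3 highest and 3 lowest of each complex, and the extremes of each other list. Members 1.5-fold apart on all T+T arrays or with probe sets of opposite sign were named too. Further genes were added after their values were seen. Alternatives covered scaling, offset, filter, trend, each T+T array left out, and the grouping. No protein sequences were used here.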

Additional observations from a re-analysis of the deposited data

How the results depend on the processing

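The count of 0 member probe sets past the adjusted threshold was 0 under every alternative with a test. The 2 members at least 1.5-fold higher on all T+T arrays became 0 after quantile normalization, median scaling, on values as deposited, with the higher offset, with the filter at the 60th percentile and when T+T replicates 2 and 3 counted as withdrawn arrays, and 4 for the label-matched pair. The 0 members 1.5-fold lower became 1 with no filter and 4 for that pair, and 0 to 1 when 1 T+T array was left out (Cycs, without replicate 3). The median of 0.11 over the members became -0.095 on values as deposited, where all genes shifted to -0.168, and 0.071 to 0.166 when 1 T+T array was left out. Signs turned only for differences that passed no test, and the cause was not tested. After quantile normalization Slc25a4 was 0.018 and Uqcrq -0.039, and after median scaling Sdhc was -0.0035. On values as deposited, Cox4i1 was -0.148, Pdha2 -0.017, Sdhaf2 -0.126, Sdhc -0.181, Uqcr11 -0.064 and Uqcrq -0.096. With these replicates counted as withdrawn, Atp5e was 0.197, Atp5md 0.036, Cox4i1 -0.476, Cox6b2 0.067, Ndufa3 0.081, Ndufaf1 0.071, Pdha1 0.215, Sdhaf1 0.149, Uqcr10 0.125, Uqcr11 -0.0080 and Uqcrh 0.160. When 1 T+T array was left out, Cox4i1 ranged from -0.0574 to 0.227, Cox6b2 from -0.0561 to 0.0514, Cox6c from -0.116 to 0.0489, Cyct from -0.300 to 0.0109, Sdhaf1 from -0.115 to 0.0121, Slc25a4 from -0.210 to 0.121 and Uqcr10 from -0.0977 to 0.128. Over all probe sets, the adjusted count of 2 became 0 after quantile normalization, with no filter, without the trend and with replicates 2 and 3 as withdrawn, 5 after median scaling and on values as deposited, 6 with the higher offset, and 63, 12 and 1 without T+T replicates 1, 2 and 3. The counts of 137 higher and 166 lower by 1.5-fold became 66 and 129 on values as deposited, 57 and 98 with the higher offset, 62 and 105 with the stricter filter, 219 and 313 with no filter, 50 and 159 with these replicates as withdrawn, and 219 to 233 and 200 to 422 with 1 array left out. No paired analysis was possible because T+O has a single array.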
